A study of Arabidopsis thaliana with 12 samples.

Results

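Plants make 24-nt siRNAs at repeats and transposons by a pathway in which Pol IV, a plant-specific RNA polymerase, transcribes a locus, RDR2 makes the transcript double stranded, and DCL3 cuts it into siRNAs. AGO4 carries these siRNAs to transcripts of Pol V, a related polymerase, where DRM2 methylates the DNA, which is called RNA-directed DNA methylation (RdDM). PKL is a chromatin remodeler of the CHD3 type that is known for turning off embryonic genes during germination. The bins described here are sites at which 24-nt siRNAs were near the detection limit in WT *Arabidopsis* seedlings and abundant in the *pkl* mutant.

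They were chosen by the measured levels themselves. A bin is a window of 100 bp, and its level is the number of 24-nt reads among 10000000 mapped reads (RPTM). The rule took bins of chromosomes 1 to 5 whose WT mean was below 2 RPTM, whose *pkl* mean was at least 10 RPTM, and whose lowest *pkl* library was above the highest WT library. It found 291 of the 57094 deposited bins, called member bins below. Of the deposited bins, 56658 exceeded 5 RPTM in at least 1 library and were analysed, and 55447 of these lie on the 5 nuclear chromosomes. Another 2910 nuclear bins had a WT mean below 2 RPTM without meeting the rest of the rule, and the 2600 of them that passed the filter are the other low bins used for comparison. All 291 member bins passed that filter, but only 36 would pass without the *pkl* libraries, so that passing says nothing about them. The 3 member bins nearest to the *pkl* limit had *pkl* means of 10.01 to 10.03 RPTM and the 3 nearest bins outside it 9.98 to 9.99 RPTM. On the WT side, the highest member had a WT mean of 1.97 RPTM and the nearest bins outside the limit 2.01 RPTM.

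The libraries came from whole seedlings of 2 weeks, grown at 22 °C with 12 h of light per day by the labels. The authors' methods give a longer day. There were 3 biological replicates for each of 4 genotypes. Besides WT these were the single mutants *pkl-1* (PKL), *nrpd1-3* (NRPD1, the largest subunit of Pol IV), and *nrpe1-11* (NRPE1, the same of Pol V). The *nrpd1* and *nrpe1* plants carry a functional *PKL* gene, and no *pkl nrpd1* or *pkl nrpe1* library was analysed here, so the need of the new siRNAs for Pol IV or Pol V was not tested. In whole seedlings, more siRNA per cell and more cells that make it cannot be told apart. Mapped reads per library ranged from 5598380 to 12390784, so that 1 read was worth 0.807 to 1.79 RPTM and the 3 reads taken as the detection floor 2.42 to 5.36 RPTM. *pkl* replicate 1 stood apart from the other *pkl* libraries: its 24-nt signal over nuclear bins outside the rDNA was 48.4% of the WT mean, against 79.5% and 94.7% in replicates 2 and 3. The same signal was 7.39% to 10.01% of the WT mean in *nrpd1* and 34.1% to 42.7% in *nrpe1*. Among the *nrpd1* libraries, replicate 2 held 64 reads at the member bins and replicates 1 and 3 held 21 and 14.

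The strongest sites were mostly single windows outside genes. The 5 with the highest *pkl* means that lie outside a gene are printed here, so that the DNA behind the largest gains can be seen. All are from RefSeq TAIR10.1, plus strand, 5′ to 3′, and capitals mark the longest run made of A and T alone.
chr2:14232301-14232400: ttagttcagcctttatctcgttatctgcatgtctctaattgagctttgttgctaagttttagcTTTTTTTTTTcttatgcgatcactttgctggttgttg
chr1:23623101-23623200: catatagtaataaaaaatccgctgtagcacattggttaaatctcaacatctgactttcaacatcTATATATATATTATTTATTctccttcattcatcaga
chr1:23946801-23946900: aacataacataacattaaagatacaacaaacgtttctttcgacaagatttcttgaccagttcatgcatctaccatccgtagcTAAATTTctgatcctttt
chr4:2353001-2353100: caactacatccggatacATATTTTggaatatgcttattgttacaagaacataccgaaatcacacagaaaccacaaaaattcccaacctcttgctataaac
chr1:3369601-3369700: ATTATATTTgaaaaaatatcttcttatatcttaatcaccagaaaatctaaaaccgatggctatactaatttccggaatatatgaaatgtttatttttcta

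The strongest new site, chr2:14232301-14232400, lies 893 bp downstream of *SWI3B* (AT2G33610), which encodes a core subunit of the SWI/SNF chromatin remodeling complex. No WT library had a read there, while the *pkl* libraries had 133, 278, and 258 RPTM. The *pkl* mean of 223 ± 78.8 RPTM (SD, n = 3) was at least 204-fold higher than WT, taking 3 reads over the WT libraries as the floor. The *nrpd1* libraries had 0, 2.97, and 0 RPTM and the *nrpe1* libraries 3.22, 8.18, and 7.52 RPTM. Every *nrpe1* library thus held a few reads of this site, although the difference from *nrpd1* did not pass the test (adjusted p = 0.0516, limma). The bin stood alone, with the nearest bin of a WT mean above 5 RPTM 41400 bp away.

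The next strongest, chr5:8314801-8314900, overlaps an untranslated exon of the gene AT5G24355. Its *pkl* libraries had 74.3, 192, and 202 RPTM, and 1 read was seen over the 3 WT libraries. In *nrpd1*, replicate 2 alone had reads (4.46 RPTM), and *nrpe1* had none. The bin chr1:23623101-23623200, 705 bp downstream of *SPPL2* (AT1G63690), a signal peptide peptidase-like protease gene, had 59.5, 111, and 127 RPTM in *pkl* against 0, 1.27, and 0 RPTM in WT. No *nrpd1* or *nrpe1* library had a read of it.

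At chr1:23946801-23946900, 894 bp downstream of *CBL8* (AT1G64480), a calcineurin B-like calcium sensor gene, the new site adjoined a WT site that was lower in *pkl*. The new bin went from 0.807, 1.27, and 0 RPTM in WT to 39.7, 86.1, and 159 RPTM in *pkl*. The adjoining bin chr1:23946901-23947000 had 45.2, 82.7, and 78.2 RPTM in WT and 3.97, 4.31, and 12.5 RPTM in *pkl*, a fall by 3.25 on the log2 scale (limma, adjusted p = 5.89e-06). Both bins were at or near 0 in *nrpd1* and *nrpe1*. The opposite was seen at chr5:114001-114100, in an untranslated exon of AT5G01280. There *pkl* had 38.7, 54.5, and 98.99 RPTM against 0.807, 0, and 0 RPTM in WT, and the adjoining bin chr5:113901-114000 rose from 4.04, 15.3, and 9.77 RPTM to 49.6, 99.03, and 89.2 RPTM (log2 difference 3.01, limma, adjusted p = 1.55e-05).

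The other 3 of the 8 strongest sites had no read in any *nrpd1* or *nrpe1* library. The bin chr4:2353001-2353100, 889 bp downstream of AT4G04650, had 39.7, 102, and 102 RPTM in *pkl* and a WT mean of 1.70 ± 0.631 RPTM (SD, n = 3). The bin chr1:3369601-3369700, 476 bp upstream of AT1G10280, had 38.7, 70.3, and 92.0 RPTM in *pkl* and 1 read in WT. The bin chr5:20575601-20575700, 63 bp upstream of AT5G50540, had 29.7, 73.2, and 96.2 RPTM in *pkl*. Every 24-mer of this last bin occurs more than once in the reference genome, so its reads cannot be placed by sequence alone. In all 8 bins *pkl* replicate 1 was the lowest of the *pkl* libraries, and in all 8 it was far above every WT library.

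**Figure D1:**
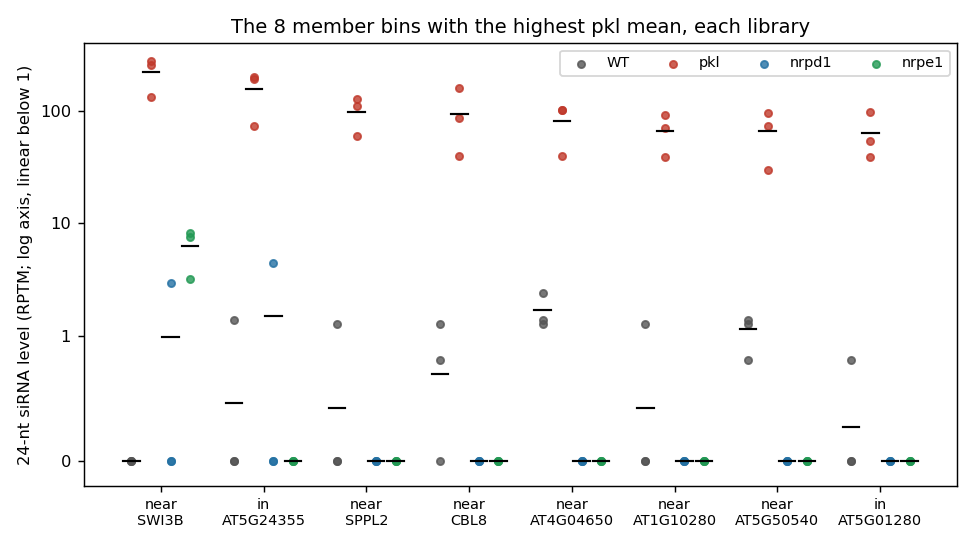
Level of the 8 member bins with the highest *pkl* mean (x axis, by the gene they lie in or near) in each library (y axis, RPTM, log axis that is linear below 1); points are libraries, coloured by genotype, and bars are the means of 3. The *pkl* points lie between 29.7 and 278 RPTM, and all points of the other genotypes lie under 10 RPTM.

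Over the 291 member bins the *pkl* means had a median of 14.8 RPTM and ranged from 10.01 to 223 RPTM. Of them, 98 reached 20 RPTM and 23 reached 50 RPTM. The WT means had a median of 1.08 RPTM, 40 bins had no WT read at all, and 174 had at most 3 reads over the WT libraries together. Summed over the members, the WT libraries had 312, 318, and 239 RPTM and the *pkl* libraries 3902, 7155, and 8684 RPTM. As a share of the nuclear 24-nt signal outside the rDNA, this was 0.0249% ± 0.00398 in WT and 0.752% ± 0.0511 in *pkl* (SD, n = 3). The share was 0.0454% ± 0.0315 in *nrpd1* and 0.0884% ± 0.00739 in *nrpe1* (SD, n = 3), whose nuclear totals are themselves lower. By this share *pkl* replicate 1, at 0.694%, lay close to the other *pkl* libraries with 0.775% and 0.789%, while by RPTM it was the lowest *pkl* library in 245 of the 291 bins. Because the rule used these WT and *pkl* values, they describe the members and test nothing. The limma test called 279 of the members higher in *pkl* at an adjusted p under 0.01 on log2(RPTM + 1), where 1.98% of all analysed bins were called higher and 8.20% lower, and this too follows from the rule.

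The rule was also applied with one pair of libraries held out, that is, to the other WT and *pkl* libraries, and the level was then read in the held-out pair. With replicate 1 held out, 489 bins were chosen, of which 31.9% reached 10 RPTM in *pkl* replicate 1, 81.8% reached 5 RPTM, and 86.1% were above WT replicate 1. With replicate 2 held out, 81.7% of 323 bins reached 10 RPTM and 97.2% were above WT. With replicate 3 held out, 87.1% of 255 bins reached 10 RPTM and 99.2% were above WT. The held-out WT library was below 2 RPTM in 51.3%, 54.2%, and 65.5% of the bins. Most bins chosen without a pair of libraries were therefore higher in its *pkl* than in its WT library, but a smaller part reached the limit in replicate 1. In many of them the held-out WT library was not below the WT limit. The share of other bins above WT was not determined. In the other low bins the median of means was also higher in *pkl* (3.96 RPTM) than in WT (1.39 RPTM).

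**Figure D2:**
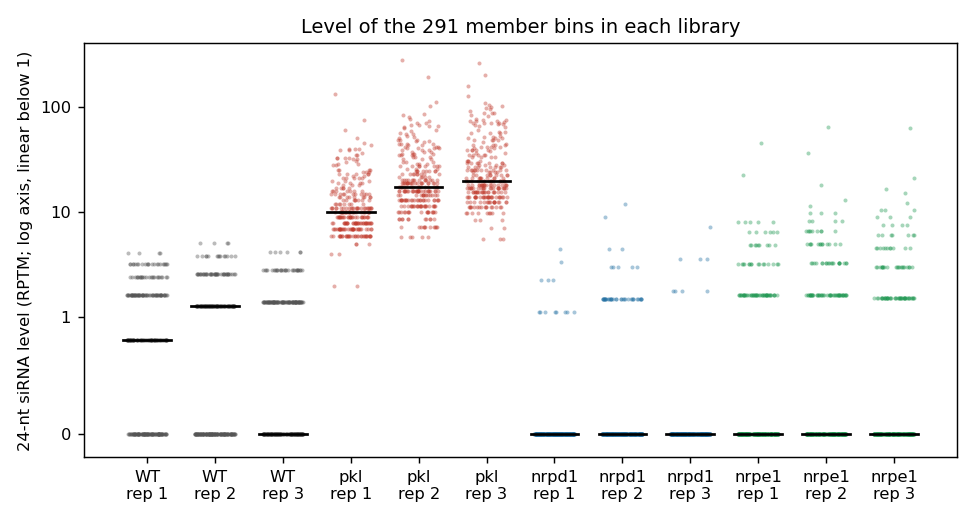
Level of each of the 291 member bins (points; RPTM, log axis that is linear below 1) in each of the 12 libraries, with the median of each library as a bar. The medians are 9.91, 17.2, and 19.5 RPTM in the *pkl* libraries and at most 1.27 RPTM in all others; the WT and *pkl* values were used to choose the bins.

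In *nrpd1*, without Pol IV, the member bins were almost empty. In 242 of them (83.2%) no read was found in the 3 *nrpd1* libraries together, 284 had at most 3 reads, and the sums were 23.4, 95.2, and 25.01 RPTM. The shares without a read were close to this in the other low bins (84.5%) and in all analysed nuclear bins (75.7%). In *nrpe1*, without Pol V, 140 of the members (48.1%) had no read, and the sums were 319, 471, and 439 RPTM. Of all analysed nuclear bins, 10.02% had no read in *nrpe1*, and of the other low bins 4.54%. Both sets had to exceed 5 RPTM in some library, *nrpe1* included, while only 36 members did so without the *pkl* libraries. The higher share in the members is therefore tied to how the sets were chosen and is not shown to be their trait. The *nrpe1* mean was above the WT mean in 100 of the members. The highest *nrpd1* library was below the lowest *pkl* library in all 291 members and the highest *nrpe1* library in 278. High *pkl* levels did not go with more reads in *nrpe1*, since no *nrpe1* read was found in 15 of the 23 with a *pkl* mean of at least 50 RPTM (65.2%) and in 87 of the 193 under 20 RPTM (45.1%). For *nrpd1* the order was the other way, with no read in 16 of these 23 (69.6%) and in 169 of these 193 (87.6%).

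The comparison of *nrpe1* with *nrpd1* at the member bins did not use the values of the rule. A bin was called at an adjusted p under 0.01 (limma, log2(RPTM + 1), two-sided) with at least 10 reads over the 6 libraries. Of the 291 members, 12 (4.12%) were higher in *nrpe1* and 0 were lower, while 31.5% of all analysed bins were called higher in *nrpe1*. These shares are not like for like. The analysed bins passed the filter above 5 RPTM through any library, most members through *pkl* alone. At an unadjusted p under 0.05 (limma) and with no minimum of reads, 44 members were higher and 0 lower. edgeR called 16 higher and 0 lower. The median log2 difference was 0 over the members and 1.87 over all analysed bins. Few members held enough reads to be called, since 21 had at least 10 reads over these libraries (7.22%, against 43.8% of nuclear bins). Of these 21, 57.1% were called, and the shares were 60.9% in the other low bins and 73.2% in all nuclear bins with as many reads. Without *nrpe1* replicate 3 the count of 12 fell to 5, and without *nrpe1* replicate 2 to 8. The minimum of 10 reads was then taken over the remaining libraries, which by itself lowers the count. At an unadjusted p under 0.05 (limma) and with no minimum of reads, 49 members were higher in each of these settings. Since 21 members had at least 10 reads, many of the 44 and 49 rest on fewer reads. The count of 12 was 6 with the replicate number as a block and 30 with no minimum of reads. After quantile normalization 1 member was higher and 2 were lower.

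The 12 called members held 315 of the 778 *nrpe1* reads over all members (40.5%). The highest level was at chr5:9904501-9904600, in a coding exon of AT5G27890, with 45.1, 63.8, and 63.2 RPTM in *nrpe1* and no read in *nrpd1* (log2 difference 5.85 ± 0.156 (SE), limma, adjusted p = 3.30e-05). Its *pkl* libraries had 7.93, 5.74, and 18.1 RPTM, all below the *nrpe1* libraries. The bin chr5:10903601-10903700, in the non-coding RNA gene AT5G04875, had 22.6, 36.0, and 21.1 RPTM in *nrpe1* and 1 read in *nrpd1* (log2 difference 4.31 ± 0.452 (SE), limma, adjusted p = 0.0011). The bin chr5:15359701-15359800, in the pseudogene AT5G38383, had 8.05, 17.99, and 7.52 RPTM in *nrpe1* and 20.8, 27.3, and 36.3 RPTM in *pkl*. In 3 members the *nrpe1* mean exceeded the *pkl* mean. Of the 12 called members, 10 had no *nrpd1* read and 10 had a *pkl* mean under 15 RPTM, as did 147 (50.5%) of the members. By annotation 6 of the 12 were in pseudogenes, which hold 27 of the 291 members. How often all analysed bins in pseudogenes were called was not determined, so this is not shown to be particular to the members.

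**Figure D3:**
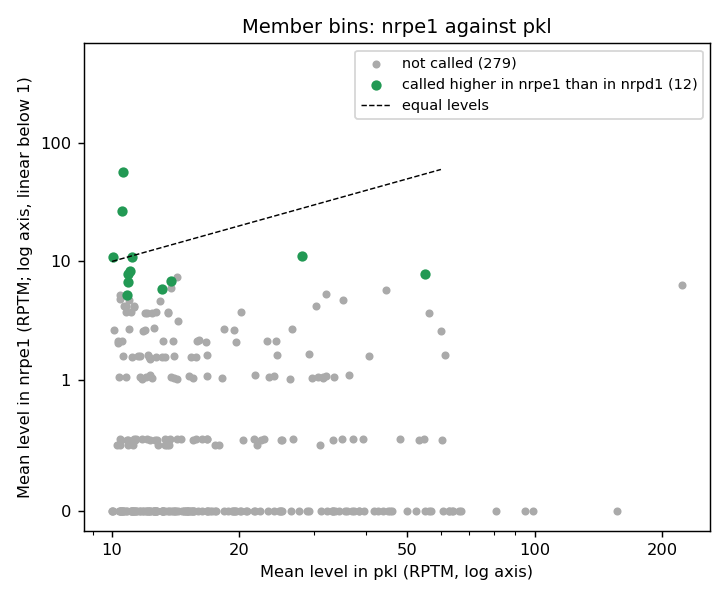
Mean level of each member bin in *pkl* (x axis, RPTM, log axis) and in *nrpe1* (y axis, RPTM, log axis that is linear below 1); green points are the 12 bins called higher in *nrpe1* than in *nrpd1*, and the dashed line marks equal levels. A row of 140 points lies at 0 in *nrpe1*, and 3 points lie above the line.

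Reads in *nrpd1* were few, 99 over all members, and 49 members had any. The bin with the highest *nrpd1* mean of all members, chr4:2184201-2184300 in *MIR841b* (AT4G04835), a microRNA gene, had 2.23, 11.9, and 1.79 RPTM in *nrpd1*. Its levels were 32.7, 30.1, and 33.5 RPTM in *pkl* and 1.61, 2.54, and 1.40 RPTM in WT. The bin chr4:2186101-2186200, in the non-coding RNA gene AT4G04845, had 1.12, 8.92, and 3.57 RPTM in *nrpd1* and 18.8, 18.7, and 34.9 RPTM in *pkl*. These bins start 1900 bp apart and are not separate regions, and in both replicate 2 was the highest *nrpd1* library. The third highest *nrpd1* mean was 2.93 ± 0.671 RPTM (SD, n = 3), at chr3:17728501-17728600 in the lncRNA gene AT3G07855, where *pkl* had 13.9, 40.2, and 40.4 RPTM.

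The new sites were mostly isolated from one another, although 207 (71.1%) lay within 1 kb of a bin with a WT mean above 5 RPTM. How other sets of as many bins would cluster was not determined. Joined over gaps of at most 200 bp, the 291 bins formed 269 clusters, of which 251 were single bins, 15 held 2, 2 held 3, and 1 held 4. The median gap between neighbouring members of a chromosome was 189100 bp. In 140 members (48.1%) neither adjoining bin was in the deposited table, as in 48.2% of the other low bins and 36.7% of all nuclear bins. The clusters of 3 bins were chr5:21547101-21547700, upstream of AT5G53140, and chr1:11139801-11140100, in the lncRNA gene AT1G06417. The 3 bins of AT1G06417 had no WT and no *nrpd1* read, and their *pkl* means were 31.0, 10.5, and 21.8 RPTM. In the cluster near AT5G53140, *pkl* means were 10.9, 24.6, and 46.0 RPTM, and the bin farthest from the gene was among the 12 called higher in *nrpe1*.

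The pair of bins with the highest level in the remaining clusters, chr1:24165701-24165900 in AT1G65050, differed between *pkl* libraries in another order than most members. The first bin had 43.6, 18.7, and 103 RPTM and the second 14.9, 12.9, and 107 RPTM, so replicate 2 was the lowest there. The next pair, chr1:7974301-7974500, overlaps the pseudogene AT1G22560. Its *pkl* levels were 24.8, 44.5, and 55.8 RPTM in the first bin and 8.92, 48.8, and 43.2 RPTM in the second.

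On the chromosomes, 73, 55, 45, 44, and 74 members lay on chromosomes 1 to 5, or 1.92 to 2.79 per Mb. They were spread outside the regions rich in siRNA bins more than the bins at large. The median number of analysed bins within 500 kb was 527 for the members, 1148 for the other low bins, and 981 for all nuclear bins. The median G + C content was 30% in the members, 39% in the other low bins, and 36% in all nuclear bins, and the longest run of A and T had a median of 10, 7, and 8 bases. None of these properties was used by the rule, and no test was run over bins, since neighbouring and similar bins are not independent. The filter above 5 RPTM still shaped the sets. Only 36 members pass it without the *pkl* libraries, while the other low bins, with a median *pkl* mean of 3.96 RPTM, passed it through any library. The nuclear bins at large also passed it through any library. This limit holds wherever the members are compared with either set. Density and G + C content both differ between gene-rich and repeat-rich DNA, and their separate parts were not tested.

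**Figure D4:**
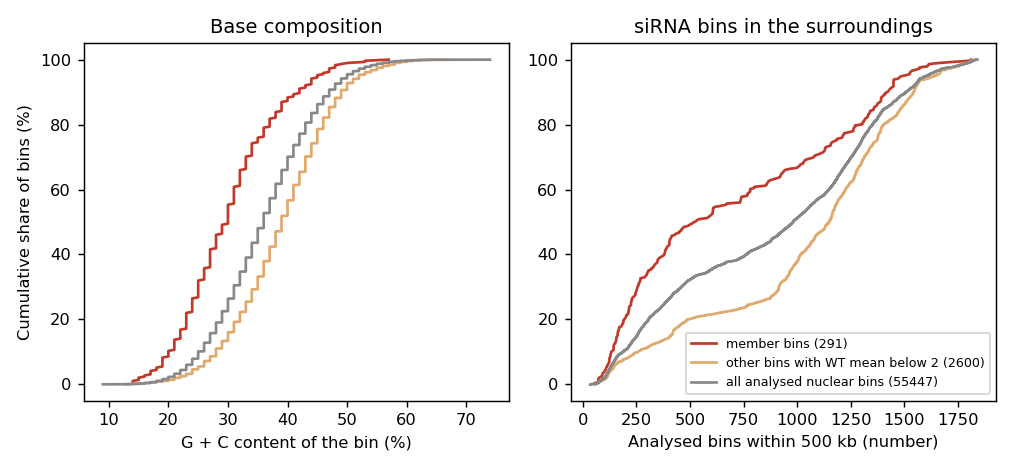
Cumulative share of bins (y axis, %) against the G + C content of the bin (left, %) and the number of analysed bins within 500 kb (right), for the 291 member bins, the 2600 other low bins, and all 55447 analysed nuclear bins. The member curve lies to the left in both panels, with medians of 30% and of 527 bins.

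Most new sites lay close to genes. Of the members, 41 (14.1%) overlapped a protein-coding gene, with 18 in coding exons, 14 in untranslated exons, and 9 in introns. A further 123 (42.3%) were within 1 kb of one, 74 upstream and 49 downstream. Together 56.4% were in or within 1 kb of a protein-coding gene, against 25.3% of the other low bins and 34.9% of all nuclear bins. These are all bins with siRNA reads. The share of the whole genome was not determined, so a preference for genes over the genome is not shown. Pseudogenes, a class in which the annotation also places transposon genes, held 9.28% of the members, 39% of the other low bins, and 24.2% of all nuclear bins. Of the remaining members 13 were in other non-coding RNA genes, 2 in a miRNA gene, and 85 (29.2%) in none of these classes. Transposons as such are not annotated in the reference used.

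The levels were not alike in these classes, although no test was run over bins. The median *pkl* mean was 23.3 RPTM in the 41 members within protein-coding genes, 16.8 RPTM in the 74 upstream, 15.6 RPTM in the 49 downstream, and 11.4 RPTM in the 27 in pseudogenes. No *nrpe1* read was found in 61.0% of the members in protein-coding genes, 63.5% of those upstream, and 61.2% of those downstream, but in 14.8% of those in pseudogenes. These shares were not determined for all analysed bins of each class, so the contrast is not shown to be particular to the members. Of the 123 members in gene flanks 0 were called higher in *nrpe1* than in *nrpd1* (17.0% of all nuclear bins in flanks were), but just 2 of them held the 10 reads that a call needs.

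**Figure D5:**
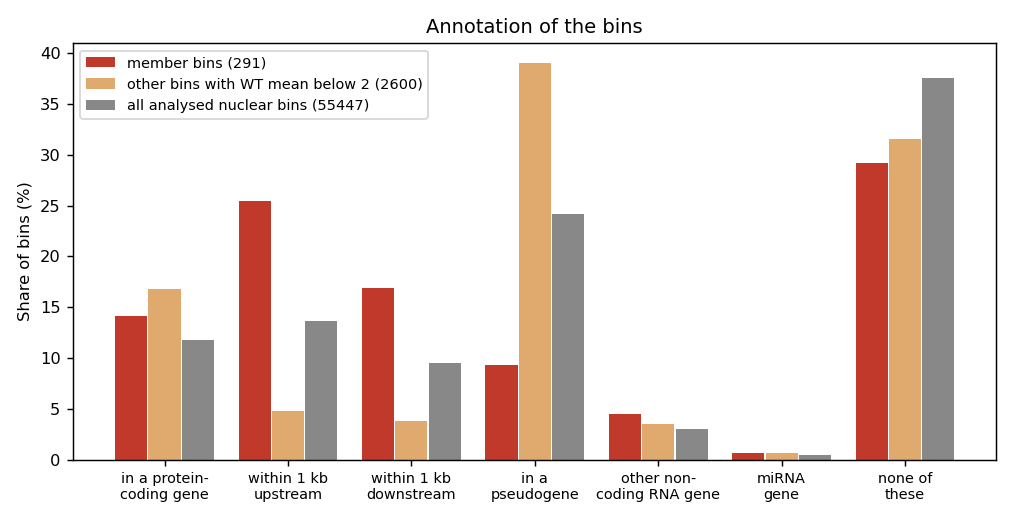
Share of bins (y axis, %, from 0) in each annotation class (x axis) for the 291 member bins, the 2600 other low bins, and all 55447 analysed nuclear bins. The members have the tallest bars within 1 kb upstream (25.4%) and downstream (16.8%) of protein-coding genes and the shortest in pseudogenes (9.28%).

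Within 1 kb, the distance to WT siRNAs was like that of the other low bins. It was larger than in the nuclear bins at large, of which 39426 had a WT mean above 5 RPTM themselves. The rule kept such bins out of the members, so that difference is not independent of the choice. A bin with a WT mean above 5 RPTM adjoined 79 members (27.1%) and lay within 1 kb of 207 (71.1%), and the median distance was 300 bp. In the other low bins these shares were 22.3% and 72.7%, and in all nuclear bins, where the median distance was 0 bp, 51.4% and 87.4%. Another 24 members (8.25%) were more than 10 kb from any such bin, against 3.35% of the other low bins and 1.39% of all nuclear bins. Around 194 members, 541 WT bins lay within 1 kb without adjoining them. Of these 82 (15.2%) were called lower in *pkl* and 27 (4.99%) higher, and among all 39426 nuclear bins of this WT level 11.8% were lower and 1.24% higher (limma, adjusted p under 0.01). Of the 83 WT bins that adjoined a member, 8 (9.64%) were lower and 9 (10.8%) higher. Adjoining bins share the reads that cross their border, so these are not independent of the member.

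The sequences of the members were in part repeated. Of the 291, 142 (48.8%) consisted of 24-mers that occur once in the reference, against 35.6% of the other low bins and 26.7% of all nuclear bins. No second copy of at least 80% identity over 50 bases was found for 117 members (40.2%), and 64 had at least 10 such copies. Matches in inverted orientation within 5 kb, from which hairpin RNA can arise, were found in 8 members (2.75%) and in 1.62% of the other low bins. In all, 30 members formed 14 groups with similar sequence over 1 kb apart, none with more than 3 members. Adjoining bins were grouped singly, so the similar regions chr1:7974301-7974500 and chr2:12773801-12774000 are counted in separate groups. One of these groups lies near genes on 3 chromosomes, and a pair of its members is shown here with the similar part in capitals (80.4% identity over 97 aligned positions, RefSeq TAIR10.1, plus strand).
chr2:7521701-7521800: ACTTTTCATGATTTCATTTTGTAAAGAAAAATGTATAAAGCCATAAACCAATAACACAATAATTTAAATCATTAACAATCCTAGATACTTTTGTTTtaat
chr5:3966001-3966100: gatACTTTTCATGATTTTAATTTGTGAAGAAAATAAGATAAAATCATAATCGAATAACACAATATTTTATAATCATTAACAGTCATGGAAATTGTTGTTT

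The first, 250 bp from AT2G17300, had 6.94, 11.5, and 18.1 RPTM in *pkl*, and the second, 221 bp from AT5G12260, 6.94, 11.5, and 20.9 RPTM. The third of this group, chr1:6123101-6123200, lies 279 bp downstream of *SUVH7* (AT1G17770), a gene of the SU(VAR)3-9 homolog family. It had 22.8, 60.3, and 80.9 RPTM in *pkl*. The third bin thus exceeded the others in every *pkl* library. The pair chr1:16294801-16294900 and chr1:16305801-16305900, in no gene, had *pkl* means of 44.5 ± 19.7 and 54.9 ± 26.9 RPTM (SD, n = 3) with replicate 1 lowest in both. The bins chr1:17543801-17543900 and chr1:17547001-17547100 have identical sequence, so a read of one cannot be told from a read of the other. The bins of these groups were named after their values had been seen.

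Over the whole annotation, 1.37% of the 37899 nuclear genes had a member within 2 kb. Of 29 RdDM genes listed 26 were matched in the annotation, and 1 of them had a member within 2 kb. This was *SUVH9* (AT4G13460), whose product binds methylated DNA and helps to recruit Pol V, with chr4:7827801-7827900 at 797 bp upstream. The bin had 5.95, 11.5, and 16.7 RPTM in *pkl* and 0, 1.27, and 0 RPTM in WT. None of 14 genes of DNA methylation and demethylation had one. Of 14 embryo and seed genes, *PHE1* (AT1G65330), a MADS-box gene known for imprinting in endosperm, had one at 1657 bp, chr1:24264501-24264600, with 10.9, 15.8, and 9.76 RPTM in *pkl*. Analysed bins of any kind were within 2 kb of 15, 8, and 5 genes of these lists. Outside the lists, *CHR23* (AT5G19310), an ATPase gene of the SNF2 family of chromatin remodelers named after its values had been seen, had members 9 and 209 bp downstream. Their *pkl* levels were 20.8, 38.8, and 55.8 RPTM and 7.93, 17.2, and 20.9 RPTM, and no *nrpe1* library had a read of either.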

How the data were processed

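Small RNAs of 12 libraries were sequenced, 3 per genotype. Per the labels, the authors used CASAVA 1.8, Trim Galore 0.4.0, BWA 0.7.15, bedtools, and edgeR with TAIR10, and their methods state that uniquely mapped reads were kept. Yet every 24-mer of 7 member bins occurs more than once in the reference, so the reads of these bins cannot be placed by sequence alone. The deposited signal is the number of 24-nt reads per 100-bp bin, which the authors divided by all mapped reads (RPTM). Values were whole multiples of 1 read (100% within 0.1 read), and reads were recovered from these steps.

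Pairs of genotypes were compared by limma 3.58.1 (R 4.3.3) on log2(RPTM + 1) over bins above 5 RPTM in any library, with Benjamini-Hochberg adjustment. limma was used because the values are normalized. The minimum of 10 reads for a call was added after a test on simulated data. edgeR 4.0.16 and DESeq2 1.42.0 on recovered reads were alternatives. Annotation, sequences, and BLAST 2.17.0 matches are from RefSeq TAIR10.1, whose chromosomes no bin exceeded. Bins in full were named as the 8 clusters highest in *pkl*, the 5 with most bins, the 3 bins highest in *nrpd1* and in *nrpe1*, and those near 3 gene lists. One item of the longest cluster is not reported here. Members and lists were chosen with earlier results of these data known.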

Additional observations from a re-analysis of the deposited data

How the results depend on the processing

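The number of members depends on the limits. It was 140 with a WT mean below 1 RPTM, 1102 below 5 RPTM, 894 with a *pkl* mean of at least 5 RPTM, 98 of at least 20 RPTM, and 541, the 291 included, when libraries were scaled to equal nuclear 24-nt totals. Without single WT or *pkl* libraries it ranged from 241 to 386, and clusters from 223 to 365. The count higher in *nrpe1* was 30 with no minimum of reads, an alternative added after the data had been seen. It was 1, with 2 lower, after quantile normalization, which forces *nrpd1* and *nrpe1* to equal distributions. Leaving out single libraries gave 5 to 10. With the replicate number as a block (replicate block), 6 members were higher in *nrpe1* and 291 in *pkl*. To look for a pairing, the deviation of each library from its genotype mean was taken on log2(RPTM + 1) in each analysed bin. These deviations, not the levels, correlated by 0.0397 to 0.168 (WT and *pkl*) and 0.0415 to 0.104 (*nrpd1* and *nrpe1*) between same-numbered libraries. Between libraries of different numbers the deviations all correlated less, by -0.0994 to 0.0353 and by -0.0758 to 0.0380. The main fits left the replicate number out. Whether same-numbered libraries share a batch was not tested, and the labels give a number alone. The *pkl* count of 279 was 101 with a pseudocount of 0.1 and 179 to 253 without single libraries, lowest without *pkl* replicate 2. Members without an *nrpd1* read were 83.5% to 94.8% without single libraries, highest without replicate 2, and 97.6% counting up to 3 reads. For *nrpe1* they were 53.6% to 57.04% without single libraries, 80.1% counting up to 3 reads, and 53.5% of the 142 members with unique 24-mers. Of the latter, 62.7% were in or near a gene. Other causes of these shifts were not tested, and levels under 2.42 to 5.36 RPTM per library are at the detection floor.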
